A study of Mus musculus with 17 samples.

Results

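The genes described here are those of cultured mouse islets whose expression rises only by 48 h: it is close to the level of fresh islets at 24 h and higher at 48 h. They were chosen from the array values themselves. A gene entered when its mean at 24 h was within 0.3 log2 of its mean at 0 h, its mean at 48 h was at least 0.4 log2 above that at 24 h, and its mean at 48 h was above 5 log2. A gene with several probe sets was represented by the probe set with the highest mean over all 17 arrays. Of 18193 genes, 8803 passed the floor of 5 log2 and 91 met all the conditions. A fixed set of macrophage genes and of matrix, integrin, protease, growth factor and channel families was left out by name, which removed Clec7a and Itgb1 and left 89 genes.

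Pancreatic islets of C57BL/6 mice were pooled from 4 animals per batch, and each of 6 batches was divided over the 3 times and kept in F12K medium with serum without further treatment. All groups share this strain, medium and lack of treatment, and the ages of the animals are not given in the sources used here. The 0 h group holds 5 arrays (replicates 1, 2, 3, 4 and 6), the 24 h group 6 and the 48 h group 6, and the replicate number is the batch. For batch 5, only the cultured portions entered.

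Islets are clusters of hormone-secreting cells, mostly beta cells, that also hold capillary endothelium, resident macrophages and a few fibroblasts and pericytes. Isolation cuts them off from blood flow and nerves, and in culture the vascular and exocrine cells that came along are known to be lost over days. Time courses of this kind separate genes that respond to the isolation itself from genes whose level shifts later.

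All arrays carried the islet label in their values, with the insulin gene Ins2 at a mean of 13.76 log2 at 0 h, 13.73 at 24 h and 13.69 at 48 h. Array medians lay between 3.47 and 3.57 log2, so a level near the median of the table, 3.52, was not separated from background. Replicate 3 at 0 h and replicate 5 at 24 h correlated least with the other arrays of their time, with median correlations of 0.987 and 0.988. Among the 89 genes, replicate 6 at 24 h was the lowest array of its time for 39 and replicate 5 for 23. At 0 h, replicate 3 was the lowest for 33 genes and replicate 1 the highest for 37. At 48 h, replicate 1 was the lowest for 29 genes and the highest for 0. The number of genes without these arrays is given with the bounds of the rule.

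Promoter sequences were at hand for 73 of the 89 genes, from RefSeq on GRCm38.p6, as windows from 250 bases before to 50 after each start. Stretches of 3 of them are shown because they hold, in capitals, the recognition letters of factors known from stimulated cells or from phagocytes. In Tubb2a, a beta-tubulin gene on the minus strand at chr13:34074278-34078008, the cyclic AMP response element TGACGTCA begins 59 bases before the start, in the window chr13:34078015-34078112. In P2ry14, a nucleotide-sugar receptor gene on the minus strand at chr3:59114623-59153492, the AP-1 site TGACTCA begins 202 bases before the start, in chr3:59153643-59153739. In Slc49a4, a lysosomal transporter gene on the minus strand at chr16:35694062-35769370, an AP-1 site begins 160 bases before the start and the reverse complement of a PU.1 site precedes it, in chr16:35769479-35769575.
Tubb2a: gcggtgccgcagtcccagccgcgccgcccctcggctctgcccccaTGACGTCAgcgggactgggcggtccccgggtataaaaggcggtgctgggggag
P2ry14: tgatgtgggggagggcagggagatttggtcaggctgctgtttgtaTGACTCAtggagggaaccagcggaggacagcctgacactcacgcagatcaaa
Slc49a4: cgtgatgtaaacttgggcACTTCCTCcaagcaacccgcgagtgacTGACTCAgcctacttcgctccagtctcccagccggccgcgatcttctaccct

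Searched on both strands, the AP-1 letters TGAGTCA or TGACTCA were in 7.14% of the 98 windows of the members, in 3.60% of the 9388 windows of all genes above the floor and in 5.20% of all 32851 windows. The PU.1 letters GAGGAAGT or GAGGAACT, read by a factor of macrophages and B cells, were in 5.10%, 4.07% and 4.76% of the same sets. The cyclic AMP response element was in 2.04%, 3.31% and 1.79%. The Sp1 box GGGCGG of housekeeping promoters was in 48.0% of the members' windows, 64.2% of those above the floor and 35.7% of all windows, and the ETS core CCGGAAG in 10.2%, 18.7% and 8.86%. For both, the members lie below the genes above the floor and above all windows. The CCAAT box was in 44.9%, 37.3% and 37.4%. The median GC content was 58.7% for members, 61.3% for genes above the floor and 52.7% for all windows. These shares describe letters in short windows, and none was tested.

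**Figure D1:**
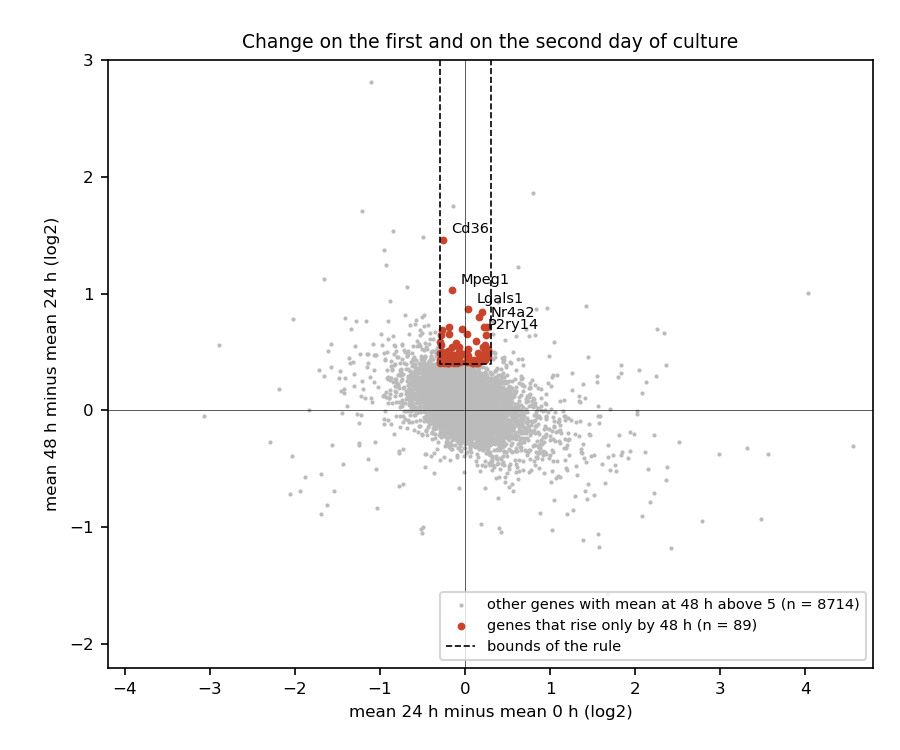
Each point is a gene with a mean at 48 h above 5 log2, placed by its difference between 24 h and 0 h (horizontal, log2) and between 48 h and 24 h (vertical, log2); red points are the 89 genes and dashed lines the bounds of the rule. Cd36 and Mpeg1 stand above 1, and most red points lie just above the lower bound of 0.4.

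The differences that chose the genes are small, and they are given as a description. The difference between 48 h and 24 h had a median of 0.46 log2 and ran from 0.40 to 1.46. It was at least 1 in 2 genes, Cd36 and Mpeg1, and lay between 0.4 and 0.5 in 61. Over the preceding day 56 genes were below and 33 above their 0 h mean, with a median difference of -0.11, and 23 were lower by 0.2 or more. Against 0 h the genes were therefore higher at 48 h by a median of only 0.39 log2, from 0.12 to 1.20, and by under 0.3 in 31 of them. No gene reached the 4-fold signal over 0 h by which the study selected genes for PCR, the largest being 2.37-fold on the linear scale, for Cd36. The mirror pattern, a fall confined by the same bounds to the second day, was met by 21 genes, and 565 genes were higher by 0.4 or more at 24 h and stayed within 0.3 of that level at 48 h.

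In most of the genes the arrays of 48 h and 24 h overlapped. Every 48 h array lay above every 24 h array in 16 of the 89, and this held in 1.73% of the genes above the floor and 0.912% of all genes. Every 48 h array lay above every 0 h array in 25, against 9.62% of genes above the floor and 5.17% of all. Both held in 8 genes: Cd36, Mpeg1, P2ry14, Ctnnal1, Lrrc10b, Tat, Chd2 and Tmem245. The rule favours genes that meet both, and the share of other genes that do so was not counted. Within batches, 60 genes were higher at 48 h than at 24 h in 6 of 6, 24 in 5 and 5 in 4, where 8.77% of genes above the floor and 5.07% of all were higher in every batch. In limma's fit over 45037 probe sets with Benjamini-Hochberg adjustment, 15 of the 89 passed an adjusted p of 0.05 at 48 h against 24 h, where 0.429% of all genes passed upwards and 0.33% downwards, and 35 passed at 48 h against 0 h, where 6.45% did. The rule used these contrasts, so nothing is read from the counts. The count of 15 was 9 without replicate 2, without replicate 4 or without replicate 5 of 48 h.

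**Figure D2:**
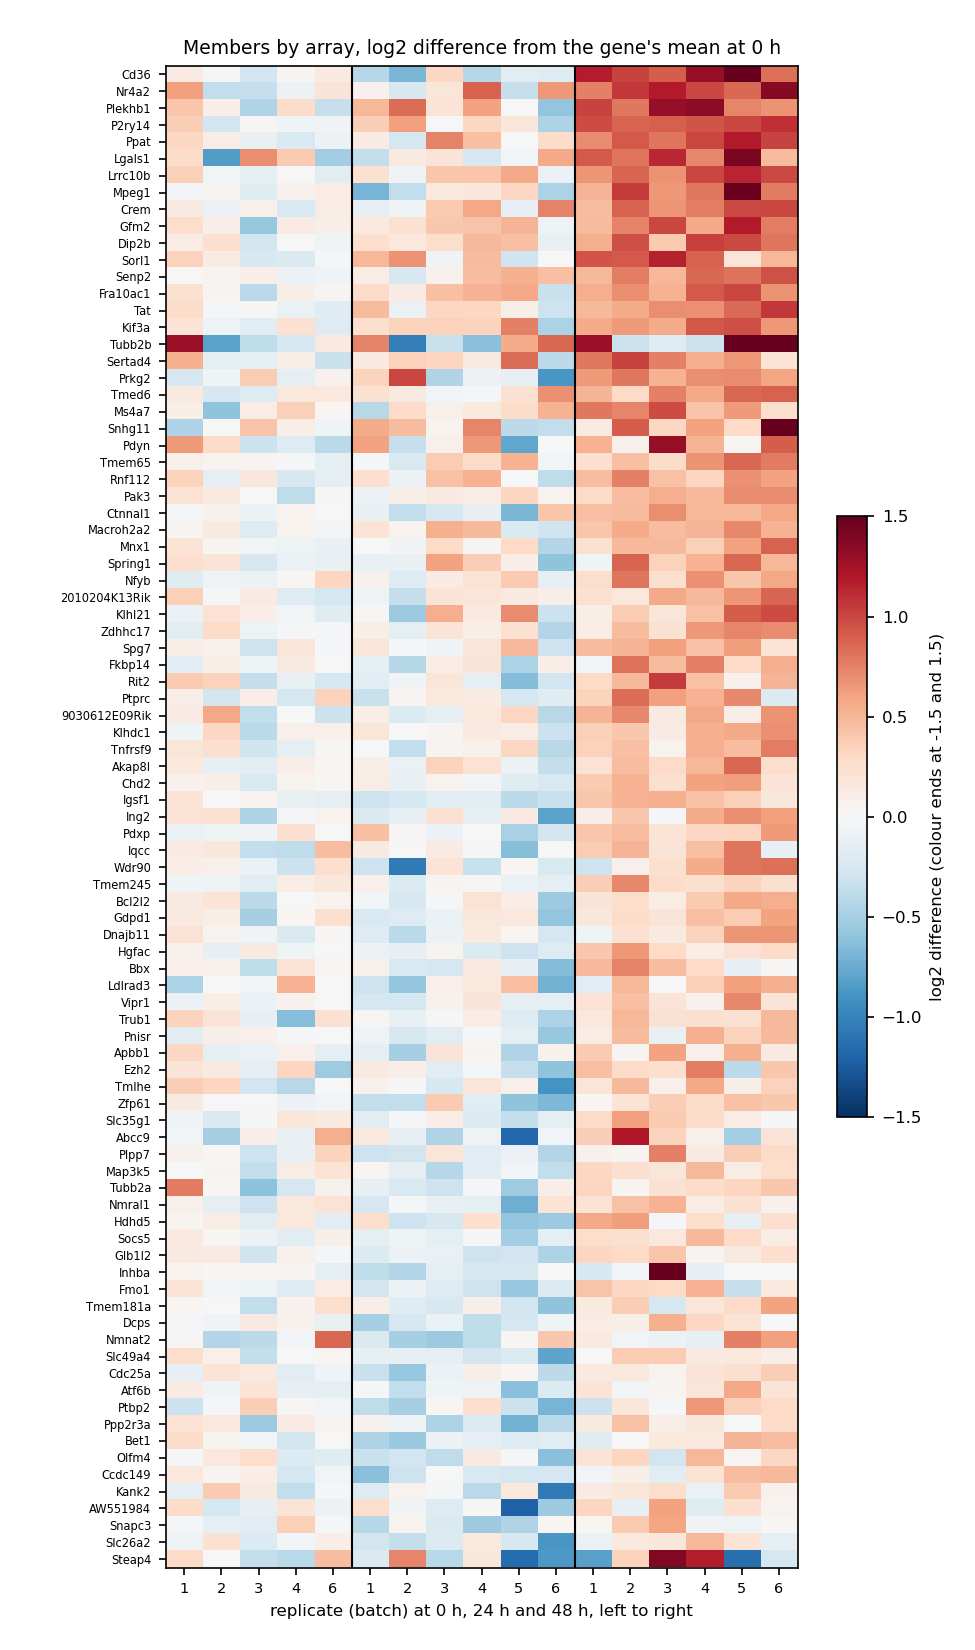
Rows are the 89 genes and columns the 17 arrays by time and batch; colour is the log2 difference from the gene's mean at 0 h, with the scale ending at -1.5 and 1.5. The 48 h columns are red for nearly all rows, replicate 6 of 24 h is the bluest column of its time, and Tubb2b, Inhba and Steap4 vary most within 48 h.

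By role, 50 of the genes fall into 6 groups and 39 into none. The leading group holds genes of phagocytes and of immune signalling, 8 members with a median difference of 0.67 log2 between 48 h and 24 h. Cd36, the scavenger receptor that takes up fatty acids and oxidised lipoproteins in macrophages, adipocytes and capillaries, stood at 4.62, 4.48, 4.22, 4.54 and 4.64 log2 on the 0 h arrays. At 24 h its 6 arrays ran from 3.81 to 4.81 with a median of 4.19, and at 48 h from 5.32 to 6.46 with a median of 5.60. All 48 h arrays were above all earlier ones, and replicate 5 of 48 h was the highest. The 24 h mean was 4.24 ± 0.34 (SD, n = 6) and the 48 h mean 5.70 ± 0.41 (SD, n = 6). That is a difference of 1.46 ± 0.17 (SE) or a 2.75-fold higher level. SEs of differences, here and below, are those of limma's fit without a batch term. From the 6 within-batch differences the SE was 0.23 for Cd36, 0.18 for P2ry14 and 0.15 for Mpeg1, so larger or smaller by gene. A dimmer probe set of Cd36 had a mean of 4.56 at 48 h, and its means of 3.21 and 3.54 at 0 h and 24 h were not separated from background.

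Mpeg1 encodes perforin-2, a pore-forming protein that macrophages use against ingested bacteria, and it is the only member among the macrophage markers. Its 0 h arrays were at 7.04, 7.13, 6.90, 7.15 and 7.20 log2, those of 24 h between 6.39 and 7.39 (median 6.97) and those of 48 h between 7.60 and 8.55 (median 7.87). The 48 h arrays were again above all others, with replicate 5 highest, and the difference over the second day was 1.03 ± 0.17 (SE). At 24 h the arrays fell into a low set, replicates 1, 2 and 6, and a set between 7.23 and 7.39, replicates 3, 4 and 5.

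P2ry14, a receptor for UDP-sugars released from stressed cells, was the tightest member at 48 h. It was at 4.62, 3.97, 4.26, 4.18 and 4.20 log2 at 0 h, between 3.79 and 4.86 (median 4.49) at 24 h, and between 5.12 and 5.35 (median 5.21) at 48 h. No 48 h array overlapped an earlier one, and the lowest 24 h array was replicate 6. Its difference of 0.80 ± 0.14 (SE) over the second day was 0.68 without replicate 6 of 24 h and 0.89 without replicate 2 of 24 h.

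In the other immune members the 48 h arrays overlapped those of 24 h, except in Socs5. Ptprc, the CD45 phosphatase of all white blood cells, had means of 5.04 log2 at 0 h and 4.96 at 24 h and ran from 4.83 to 5.87 at 48 h, where replicate 6 lay below its own 24 h array. Ms4a7, a membrane protein of macrophages, had means of 4.98, 5.13 and 5.62, and its lowest 48 h array was also replicate 6. Lgals1, a galectin that binds glycans and damps T cell responses, was at 5.80, 4.69, 6.23, 5.92 and 5.01 at 0 h, between 5.17 and 6.10 at 24 h and between 6.00 and 6.94 at 48 h. Its 0 h arrays spanned more than the difference of 0.87 ± 0.23 (SE), and a further probe set of Lgals1 met the rule with means of 5.01, 4.77 and 5.48. Tnfrsf9, the costimulatory receptor 4-1BB, had means of 6.86, 6.80 and 7.30 and was higher at 48 h in 6 of 6 batches. Socs5, an inhibitor of cytokine signalling, was between 6.86 and 7.36 at 24 h and at least 7.54 on 5 of 6 arrays at 48 h, the remaining one also being above 24 h but within the 0 h range of 7.22 to 7.53.

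In these whole islets, more cells of a type and more RNA per cell cannot be told apart. The 27 macrophage and dendritic cell markers that are no members were measured beside these genes, and 21 of them were higher at 48 h than at 24 h. Their mean level was between 5.34 and 5.82 log2 on the 0 h arrays, 4.90 and 5.19 at 24 h and 5.13 and 5.45 at 48 h. The second-day difference of 0.29 had an exact two-sided permutation p of 0.0043, 0.0121 after adjustment over 14 marker lists, and was positive in 5 of 6 batches. Clec7a, which met the rule's numeric conditions and was left out by name only, is among the 27, and the test was not run without it. The call was lost with the median over the markers in place of the mean, where the lowest adjusted exact p of the 14 lists was 0.0606. In an exact sign-flip test within batches the lowest adjusted p was 0.0875. That test can hardly decide, since 6 batches allow no p below 0.0312. Adjustment over 14 lists then lets a list pass only if many reach that minimum. The mean over the markers at 48 h was thus above that of 24 h but below that of 0 h, 5.53. Against 0 h, 4 of the 27 rose and 6 fell by 48 h past limma's adjusted p of 0.05. The rule places every member above its 0 h mean, so members and markers are not compared on this point. On all 17 arrays Cd163, Itgam and Mrc1 stayed below the median of the table. Of the 27 markers, 4 rose and 2 fell past limma's adjusted p of 0.05 at 48 h against 24 h. The median difference over the list with Mpeg1 included was 0.24, where that of all genes was -0.0019. Clec7a, a fungal glucan receptor left out of the members by name, went from 5.24 to 6.99 (limma adjusted p = 3.05e-05). Lyz1, a lysozyme gene, went from 6.68 to 8.38 (limma adjusted p = 0.0162), on a probe set of a kind that can match several transcripts. The MHC class II genes H2-Aa and H2-Eb1 fell in the same limma fit, by 0.88 (adjusted p = 0.0314) and 0.81 (adjusted p = 0.00683) on the log2 scale. Of the 81 phagocyte receptor and signalling genes that are no members, 3 rose and 1 fell in limma's fit. Laptm5, which is also among the 27 markers, and Cd53 rose by 0.65 each (adjusted p = 0.0107 and 0.00792 in limma's fit). Ms4a4c fell by 0.46 (limma adjusted p = 0.0111). The median difference over that list, with its 3 members Cd36, Ptprc and Ms4a7 included, was 0.04. Whether the members' levels follow the number of macrophages was not tested.

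**Figure D3:**
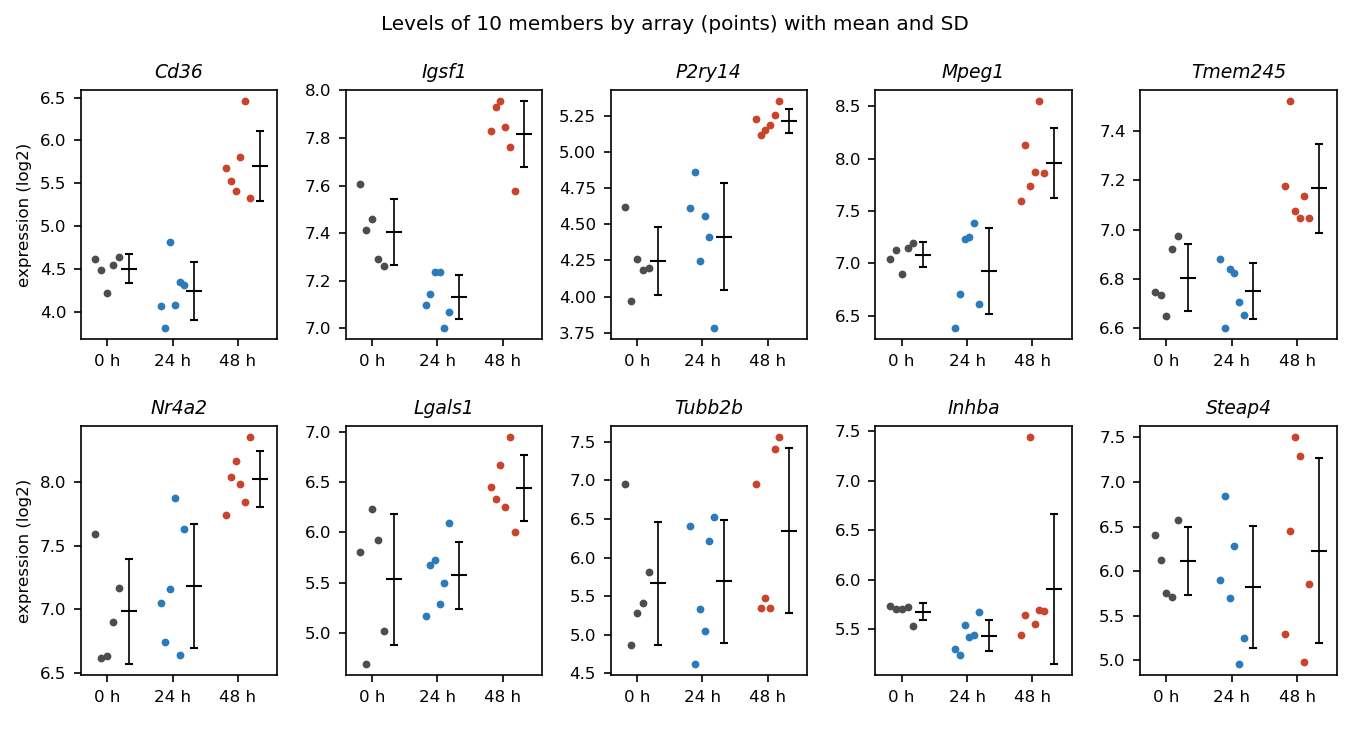
Expression in log2 (vertical) of 10 members on each array at 0 h (grey, n = 5), 24 h (blue, n = 6) and 48 h (red, n = 6), with the mean and SD beside the points; each panel has its own vertical scale. In the upper row no 48 h array overlaps a 24 h array, and in the lower row Nr4a2 and Lgals1 overlap slightly, Tubb2b splits by batch, Inhba is high on 1 array and Steap4 overlaps throughout.

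The nuclear genes, 12 members with a median difference of 0.49 log2, include a pair of regulators that are known as immediate responders to cyclic AMP and calcium. Nr4a2, an orphan nuclear receptor, was at 7.60, 6.62, 6.63, 6.90 and 7.17 log2 at 0 h, between 6.64 and 7.87 (median 7.10) at 24 h and between 7.74 and 8.35 (median 8.01) at 48 h. Replicates 4 and 6 were high at 24 h, replicate 4 reached above the lowest 48 h array, and all 48 h arrays lay above those of 0 h. A further probe set of Nr4a2 met the rule as well, with means of 5.33, 5.56 and 6.15. Crem, a cyclic AMP-responsive factor with activating and repressing isoforms, had means of 7.69, 7.93 and 8.49 and was higher in 6 of 6 batches. Its other bright probe set was already higher by 0.57 at 24 h (6.49, 7.06 and 7.57), so that probe set does not follow the late pattern.

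Among the other nuclear members, Chd2, a nucleosome remodeller, was at 7.41, 7.44, 7.11, 7.39 and 7.36 log2 at 0 h, between 7.12 and 7.45 at 24 h and between 7.55 and 7.97 at 48 h, with no overlap with either earlier time. Its low 0 h array was replicate 3, and another bright probe set of Chd2 was higher by 0.44 at 24 h and by a further 0.28 at 48 h. Zfp61, a zinc finger protein, had means of 6.40, 6.10 and 6.69, so that its level at 48 h regained and slightly passed that of fresh islets. Of 107 further growth and lineage transcription factors, 0 rose and 1 fell at 48 h against 24 h in limma's fit, and 4 were higher and 11 lower at an unadjusted p under 0.05. The 1 that fell was Jund, an AP-1 subunit, by 0.40 log2 (limma adjusted p = 0.0442). The median difference of the list with Nr4a2 included was -0.05.

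Microtubule and cytoskeleton genes made up 6 members, all higher at 48 h than at 24 h in 6 of 6 batches. The beta-tubulin genes Tubb2a and Tubb2b lie side by side with 0 annotated genes between them and encode nearly identical proteins, and the Tubb2a probe set is of a kind that can match several transcripts, so their signals may not be fully separate. Tubb2b split by batch. At 0 h it was at 6.96 log2 in replicate 1 but 4.87, 5.28 and 5.42 in replicates 2, 3 and 4 and 5.81 in replicate 6. At 24 h replicates 1, 5 and 6 were at 6.41, 6.22 and 6.53 and replicates 2, 3 and 4 at 4.63, 5.33 and 5.04. At 48 h the former were at 6.95, 7.41 and 7.56 and the latter at 5.35, 5.48 and 5.34. Batches 1 and 6 thus held a higher level than batches 2, 3 and 4 at all 3 times, and batch 5, which has no 0 h array here, at 24 h and 48 h. Within batches 1 to 6 the differences between 48 h and 24 h were 0.55, 0.72, 0.15, 0.30, 1.19 and 1.03, all positive, with a mean of 0.66 ± 0.41 (SD, n = 6).

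Tubb2a was more even, at 10.52, 9.76, 9.13, 9.49 and 9.81 log2 at 0 h, between 9.21 and 9.84 (median 9.56) at 24 h and between 9.78 and 10.14 (median 10.04) at 48 h. Its 0 h arrays covered the whole range of the later times, with replicate 1 highest and replicate 3 lowest. Kif3a, a kinesin motor of cilia and axons, had means of 6.44, 6.70 and 7.16, and its 3 other probe sets above the floor differed by 0.07, 0.24 and 0.16 over the second day. Pak3, a kinase that acts on actin and is known in islets and neurons, went from a mean of 9.89 at 24 h to 10.33 at 48 h, and both of its other bright probe sets met the rule. Ctnnal1, an alpha-catenin-like protein, was at 7.17, 7.24, 7.09, 7.24 and 7.17 at 0 h, at most 7.60 at 24 h and between 7.64 and 7.88 at 48 h. Replicate 6 of 24 h was its highest array before 48 h and replicate 5 of 24 h its lowest, and the difference of 0.72 ± 0.12 (SE) was 0.84 without the former and 0.62 without the latter. Of the 29 other microtubule and motor genes, 0 rose and 0 fell past limma's adjusted p. At an unadjusted p under 0.05, 3 were higher and 2 lower. The median difference over the list, its 3 members included, was 0.01 log2.

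The secretory pathway contributed 6 members with differences between 0.42 and 0.58 log2, and in none did the 48 h arrays clear those of 24 h. Dnajb11, a co-chaperone of the endoplasmic reticulum, had means of 8.67, 8.54 and 8.99, higher in 6 of 6 batches. Of 44 other stress and chaperone genes, 0 passed limma's adjusted p over the second day. At an unadjusted p under 0.05, 10 were higher and 2 lower. The median difference of the list with Dnajb11 included was 0.01. Fkbp14, a prolyl isomerase that helps fold collagen, had means of 5.82, 5.72 and 6.30. Sorl1, a sorting receptor between the Golgi and endosomes, was at 7.97, 7.75, 7.38, 7.41 and 7.60 at 0 h, between 7.32 and 8.30 at 24 h and between 7.80 and 8.78 at 48 h. Its 2 other bright probe sets were higher by 0.51 and 0.57 already at 24 h. Atf6b, a stress-sensing factor of the endoplasmic reticulum, passed the floor only narrowly, with means of 4.85, 4.62 and 5.04.

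Secreted signals, receptors and signalling enzymes gave 8 members. Igsf1, a membrane glycoprotein of endocrine tissue, was the member whose 48 h arrays stood second farthest from those of 24 h: 7.61, 7.41, 7.46, 7.29 and 7.26 log2 at 0 h, at most 7.24 at 24 h and 7.58 to 7.95 at 48 h. All 24 h arrays lay below all others, so the gene dipped before it was higher, and a dimmer probe set of Igsf1 had means of 4.71, 4.59 and 5.05. Prkg2, a cyclic GMP-dependent kinase, was between 5.06 and 5.33 at 48 h, but its 24 h arrays ran from 3.66 in replicate 6 to 5.54 in replicate 2. Its difference of 0.69 was 0.53 without the former and 0.902 without the latter. Hgfac, a protease that activates hepatocyte growth factor, was between 8.03 and 8.38 at 24 h and 8.45 and 8.98 at 48 h. Map3k5, the stress kinase ASK1, was between 7.43 and 7.88 and then 7.96 and 8.35, and neither overlapped between the later times.

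The peptide and growth factor members rest on fewer arrays. Inhba, the activin A subunit, was at 5.74, 5.70, 5.71, 5.73 and 5.53 log2 at 0 h and between 5.25 and 5.67 at 24 h. At 48 h replicate 3 was at 7.43 and the other 5 arrays between 5.44 and 5.69, within the earlier range. The mean difference of 0.47 ± 0.24 (SE) was 0.17 without that array. Pdyn, the precursor of dynorphin peptides, spanned 6.48 to 7.52 at 0 h, 6.11 to 7.54 at 24 h and 6.91 to 8.19 at 48 h and was higher in 4 of 6 batches. Vipr1, a receptor for vasoactive intestinal peptide, had means of 6.85, 6.75 and 7.16 and was higher in 5 of 6 batches. Of 85 other growth factor genes, 0 rose and 3 fell over the second day in limma's fit (4 higher and 12 lower at an unadjusted p under 0.05). The median difference of the list with Inhba included was -0.03. Angpt2, a vascular growth factor, fell by 0.77 log2 (limma adjusted p = 0.00133), and Angptl6, an angiopoietin-like protein, fell by 0.70 (limma adjusted p = 0.0443). Among 82 other chemokine, cytokine and receptor genes 0 rose in limma's fit, and 1, Ccl5, fell by 0.97 (adjusted p = 0.0107). At an unadjusted p under 0.05, 2 of these were higher and 12 lower, and the median difference of the list with Tnfrsf9 included was -0.07.

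Enzymes and transporters of metabolism, 10 members, were higher at 48 h in every batch in 9 cases. Ppat, which starts purine synthesis, was at 8.39, 8.18, 7.96, 7.85 and 7.98 log2 at 0 h, between 7.81 and 8.81 at 24 h and between 8.78 and 9.26 at 48 h. Only replicate 3 of 24 h reached into the 48 h range, and its other bright probe set had gained 0.66 by 24 h (7.41, 8.08 and 8.64). Tat, the tyrosine aminotransferase that glucocorticoids are known to induce in liver, was between 6.03 and 6.80 at 24 h and 6.82 and 7.40 at 48 h, just clear of each other. Glb1l2, a galactosidase-like protein, was at 8.47, 8.46, 8.04, 8.40 and 8.32 at 0 h, then between 7.88 and 8.25, and then between 8.37 and 8.75, and a second bright probe set met the rule. Slc49a4, the lysosomal transporter, had at most 6.66 at 24 h and 6.80 to 7.18 at 48 h, which overlapped the levels of fresh islets (6.43 to 7.06). The lipid list, which shares Cd36, had 67 other genes, of which 0 rose and 2 fell in limma's fit (2 higher and 5 lower at an unadjusted p under 0.05). They were Fabp4, a fatty acid carrier, by 0.85 (adjusted p = 0.00492 in limma's fit) and Pparg, its lipid-activated regulator, by 0.58 (adjusted p = 0.0138).

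At the weak end of the group, Steap4, a metalloreductase, spanned 4.96 to 6.84 log2 at 24 h and 4.98 to 7.50 at 48 h and was higher in 4 of 6 batches. Abcc9, the potassium channel subunit SUR2 of vascular pericytes, had means of 4.87, 4.58 and 5.15, and its 48 h arrays ran from 4.36 to 6.07. Of the 12 other pericyte and smooth muscle markers, Acta2, smooth muscle actin, was the 1 that rose over the second day (5.26 to 6.38, adjusted p = 0.00288 in limma's fit), after 6.92 at 0 h. The 24 fibroblast and stellate cell markers, of which 0 are members and 19 were higher at 48 h than at 24 h, were between 4.02 and 4.14 on average at 24 h and between 4.29 and 4.66 at 48 h (exact permutation p = 0.00216, adjusted p = 0.00758). That p is the smallest 6 against 6 arrays allow. Of the 24, 7 had a mean at 48 h above the floor, and Loxl1, Lum and Pi16 stayed below the table's median on all arrays. The median difference over the list was 0.18, while its mean level differed by 0.44. The 16 beta cell markers were higher at 48 h than at 24 h by 0.17 (adjusted exact p = 0.00758), and the acinar, endothelial and adipocyte lists were lower by 1.19, 0.36 and 0.26 (adjusted exact p = 0.0354, 0.00758 and 0.00758). In the adipocyte list Fabp4 and Pparg fell by 0.85 and 0.58 log2, and the next largest fall, of Cidec, was 0.19. Adipoq, Cidec and Lep stayed below the median of the table on all arrays. Whether adipocytes were present was not tested. With the median over a list's markers 0 of the 14 lists passed. In the sign-flip test within batches 0 passed too, but there a list could pass only if many reached the smallest p. What these shifts of cell type markers contribute to the members was not tested.

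**Figure D4:**
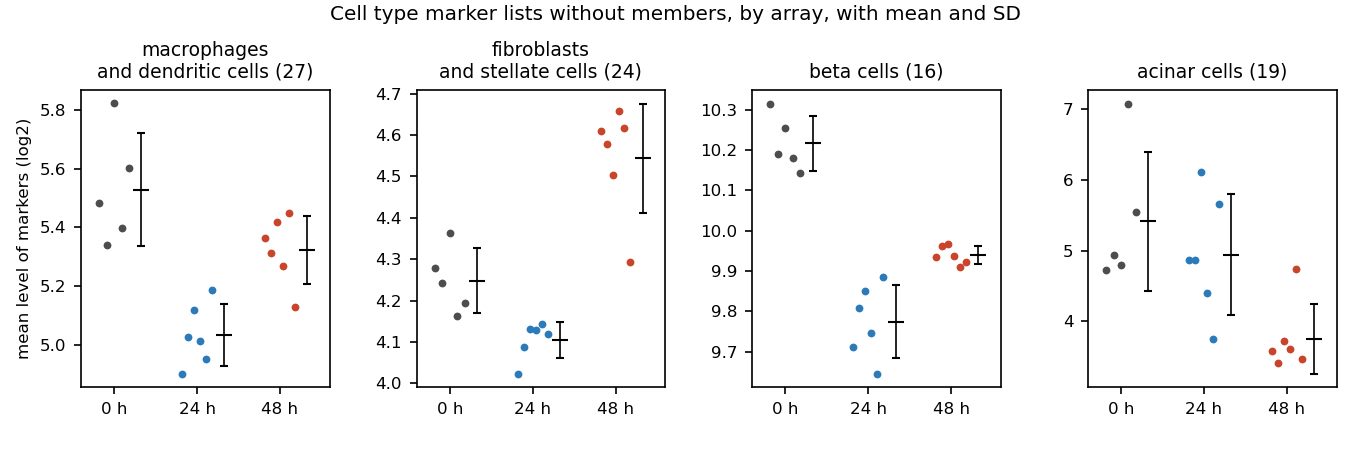
Mean log2 level of 4 cell type marker lists (members left out, number of markers in brackets) on each array at 0, 24 and 48 h, with mean and SD; each panel has its own vertical scale. Macrophage, fibroblast and beta cell markers are higher at 48 h than at 24 h, and acinar markers are lower with replicate 5 of 48 h at 4.74.

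Tmem65, Lrrc10b, Tmem245, Plekhb1, Wdr90, Dcps and Trub1 belong to none of these groups. Tmem65, a mitochondrial membrane protein, had means of 10.59, 10.74 and 11.14 log2 and met the bound of 0.4 only just. Lrrc10b, a leucine-rich repeat protein, was at 9.75, 9.36, 9.27, 9.40 and 9.23 at 0 h, between 9.30 and 9.97 at 24 h and between 10.07 and 10.55 at 48 h. The 48 h arrays cleared both earlier times, and its mean was higher by 0.89 than at 0 h. Tmem245, a membrane protein whose gene lies next to Ctnnal1 with 0 genes between them, was between 6.65 and 6.97 at 0 h, 6.60 and 6.88 at 24 h and 7.05 and 7.52 at 48 h. Lgals1 and Pdxp are another adjacent pair among the 89, as are Tubb2a and Tubb2b. Plekhb1, a protein of membranes first known from photoreceptors, had means of 7.32, 7.58 and 8.30, and Rit2, which encodes a Ras-like protein of neurons, 5.76, 5.57 and 6.23. Wdr90, a WD-repeat protein of centrioles, spanned 6.51 to 7.09 at 0 h, 5.77 to 7.05 at 24 h and 6.53 to 7.67 at 48 h, so all times overlapped. Dcps, an enzyme that clears the caps of decayed mRNA, was between 6.18 and 6.61 at 24 h and 6.68 and 7.21 at 48 h. Trub1, a pseudouridine synthase, was between 6.29 and 6.86 and then 6.91 and 7.25. For both, the 48 h arrays cleared those of 24 h but overlapped those of 0 h, at 6.56 to 6.81 for Dcps and 6.11 to 7.09 for Trub1.

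Of the 89 genes, 14 were in a list of cell type markers or functions and 75 in none, and 3 do not code for protein. By symbol family, solute carriers made up 3.37% of the members and 1.83% of genes above the floor, and ribosomal proteins and proteasome subunits 0% of the members and 0.545% and 0.523% of genes above the floor. The median gene span was 29.2 kb for members and 24.8 kb for genes above the floor. The SD at 48 h had a median of 0.24 log2 over members and 0.17 over genes above the floor.

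Other probe sets of the same genes give the same contrast on different oligonucleotides, and they are set out as a description. A further probe set existed for 56 members, 101 in all, of which 27 in 19 members were above the floor at 48 h. Of those 27, 24 were higher and 3 lower at 48 h than at 24 h, with a median difference of 0.32, from -0.12 to 0.71. The floor used the 48 h mean alone, which favours probe sets that are higher at 48 h. Some genes, such as Pnisr, gave several of the 27, so nothing is read from these counts. They reached 0.4 in 12 cases, and 7 met the whole rule, in Lgals1, Nr4a2, Igsf1, Pnisr, Glb1l2 and Pak3. The negative ones belonged to Pnisr, Nfyb and Cdc25a. The 74 at or under the floor had a median difference of 0.02.

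**Figure D5:**
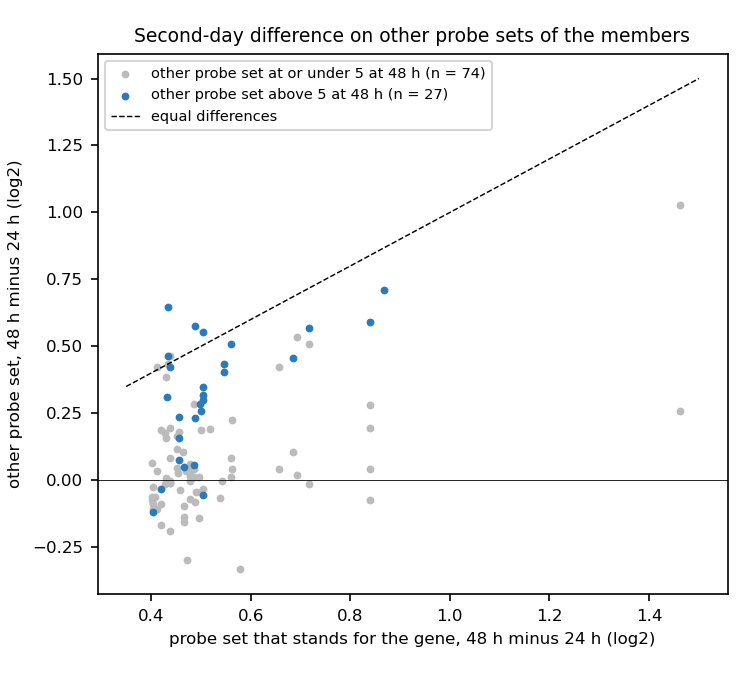
Each point is a further probe set of a member, with the log2 difference between 48 h and 24 h of the probe set that stands for the gene (horizontal) and its own (vertical). Blue points (n = 27) are above 5 log2 at 48 h and lie mostly above 0 and below the dashed line of equal differences; grey points (n = 74) centre near 0.

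The bounds cut through a continuum. Kank2, Tmem65 and Vipr1 entered with differences of 0.4023, 0.4025 and 0.4025, and Slco3a1, Rbm25 and Slc35b4 stayed out with 0.3997, 0.3996 and 0.3991. At the lower edge of the first-day window, Slc26a2, Ppp2r3a and Zfp61 lay at -0.2986, -0.2978 and -0.2978 inside it and Tle2, Zfp84 and Lrrc45 at -0.3040, -0.3067 and -0.3075 outside. At its upper edge Gfm2, Fra10ac1 and Kif3a lay at 0.2724, 0.2688 and 0.2597 inside and Cfi, Fh1 and Tmem71 at 0.3129, 0.3218 and 0.3285 outside. Atf6b, Tmlhe and Abcc9 passed the floor at 5.04, 5.12 and 5.15, and Postn, Guf1 and Pak6 missed it at 4.88, 4.87 and 4.85. With each of the 17 arrays left out in turn, 16 of the 89 genes met the rule every time, Mpeg1, Lgals1, P2ry14, Tat, Chd2 and Ptprc among them, and 44 met it at least 15 times. Cd36 met it 15 times and Steap4, the least steady, 6 times. Without replicate 3 of 0 h and replicates 5 and 6 of 24 h together, a setting chosen after seeing the data, 59 genes met the rule and 46 of them were among the 89.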

How the data were processed

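Total RNA of 17 portions of mouse islets was amplified, labelled with biotin and hybridised to Affymetrix whole-genome mouse GeneChips, per the series' design text. Per the submitters' processing notes, RMA (version not stated there) produced the deposited log2 values, 1 per probe set and array; their range, 1.55 to 13.81, is what shows the scale. RMA brings all arrays to one distribution, which hides any shift common to most genes and shrinks differences of dim ones. The number of arrays limits the precision.

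Of 45101 probe sets, 64 controls were left out. The platform annotation paired 34945 of the rest with 1 symbol, 932 with several and did not list 9160; genes were named only from probe sets with 1 symbol. limma 3.58.1 (R 4.3.3) fitted 1 mean per time to all 17 arrays (lmFit, eBayes), with Benjamini-Hochberg adjustment over 45037 probe sets, and was checked on simulated data. Marker list means were compared by exact two-sided permutation tests. The batch was also fitted as a block: replicate numbers come from batches named in the design text, and over 16 pairs of arrays of 1 batch the deviations correlated at a median of 0.00545.

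The genes, lists, role groups and alternatives were chosen with earlier results of these data known. Named are the 20 members with the largest second-day difference, the 15 with the widest gap between 24 h and 48 h arrays, up to 4 per list, the 3 on each side of each bound, and up to 2 list genes per direction that passed and are no members. A few other members, Steap4 and Pak3 among them, were named with their values known.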

Additional observations from a re-analysis of the deposited data

Results flagged for a closer look

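The highest or lowest array of each time was compared with the rest of its group (Dixon's 95% critical value) for 46 named members and 14 marker lists, and 10 of 180 groups held an array that stood apart; chance gives about 1 in 20.

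Inhba, the activin A subunit, was at 7.43 log2 on replicate 3 of 48 h, with the other 5 arrays between 5.44 and 5.69. Its 0 h replicate 6 was at 5.53, below the 5.70 to 5.74 of the other 0 h arrays. Tmem245 was at 7.52 on replicate 2 of 48 h, above the others at 7.05 to 7.18.

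Replicate 3 of 0 h was low for 3 members. Gfm2, a mitochondrial translation factor, was at 5.44 there against 6.08 to 6.27, Ppp2r3a, a phosphatase subunit, at 5.43 against 6.01 to 6.19, and Chd2 at 7.11 against 7.36 to 7.44. At 24 h, Slc49a4 was at 5.996 on replicate 6 against 6.51 to 6.66, and Socs5 at 6.86 on replicate 5 against 7.23 to 7.36.

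Among the marker lists, the mean of the acinar markers was 4.74 on replicate 5 of 48 h and 3.41 to 3.72 on the 5 others. The mean of the T, NK and B cell markers was 3.39 on replicate 3 of 0 h and 3.27 to 3.30 on the others, all below the table's median.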

How the results depend on the processing

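The difference between 48 h and 24 h was positive for all 89 genes under 21 alternative settings, with values from 0.15 to 1.58 log2. The rule chose the genes for this difference, so its sign is a description and no test. Settings that left out a 0 h array or averaged within batches could not change it. The cause of the shifts below was not tested. Membership depended on the choices. The rule gave 45 genes with the mean over all probe sets of a symbol (39 of the 89 among them), 53 with a window of 0.2, 300 with a step of 0.3, 28 with a step of 0.5 and 59 without the 3 arrays that stood apart (46 shared; chosen after seeing the data). With the median in place of the mean per time, 99 genes met it, but only 52 were among the 89. Leaving out 1 array at a time gave 60 (without replicate 6 of 24 h) to 135 genes (without replicate 1 of 48 h). Of the 89, 9 passed limma's test at 48 h against 24 h over complete batches, and 9 to 16 with 1 array left out. Arrays of 48 h and 24 h did not overlap in 27 over complete batches, in 28 without the 3 arrays and in 16 to 23 with 1 array left out; the fewer arrays allow this by construction. With the batch as a replicate block, 16 members passed at 48 h against 24 h (11 of them among the 15) and 33 at 48 h against 0 h, and neither count moved by over 1.5 times. Of the marker lists, 5 to 7 passed with 1 array left out and 0 with the median over markers (lowest adjusted exact p 0.0606). In a sign-flip test with the replicate block 0 passed (lowest adjusted exact p 0.0875). There 6 batches allow no p below 0.0312, and adjustment over 14 lists lets a list pass only if many reach it. Dim genes limit the rule: 20 members had a mean under 6 log2 at 48 h.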
